A study of Mus musculus with 6 samples.

Results

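The SLC25 carriers, the nuclear-encoded transporters of the mitochondrial inner membrane, were followed in cardiomyocytes with and without the transcription factor TFEB. The members were taken by name as all genes with a symbol of Slc25a followed by a number, leaving out pseudogenes and the uncoupling proteins Ucp1 to Ucp3. The table of 46450 gene symbols held 47 such genes. Of these, 40 were among the 12437 genes with at least 1 CPM (reads assigned to a gene, scaled to a common library total) in at least 3 of 6 libraries, the filter for testing. The other 7, Slc25a2, Slc25a18, Slc25a21, Slc25a41, Slc25a43, Slc25a48 and Slc25a54, were listed at 0 in every library.

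Messenger RNA came from adult cardiomyocytes, the contractile cells of the heart, isolated from excised hearts of C57BL/6 mice aged 3 months. There were 2 groups, wild type (n = 3 libraries) and TFEB-/- (n = 3). How the TFEB allele was made, whether it was deleted in the whole animal or in one cell type, and whether each library came from its own animal are not given in the sources used here, so p-values measure only the spread between these libraries. Values are CPM rounded to whole numbers by the authors, so no value is known more finely than 1 CPM, and the depth of each library is unknown.

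SLC25 proteins share one fold, a bundle of helices around a central site that opens in turn to the space between the mitochondrial membranes and to the matrix. They move ADP and ATP, phosphate, carboxylates, amino acids, acylcarnitines, iron and cofactors, and so join the respiratory chain and the Krebs cycle to the rest of the cell. The heart, which makes most of its ATP in mitochondria, depends on the exchange of ADP for ATP and on the import of phosphate and acylcarnitines. TFEB activates lysosomal and autophagy genes and binds DNA at an E-box, CACGTG.

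Tfeb itself was read at 17, 30 and 23 CPM in the wild-type and 6, 5 and 7 CPM in the TFEB-/- libraries, lower in every TFEB-/- library. Some Tfeb reads remained, and gene-level values do not tell which exons they cover. Defining markers of cardiomyocytes stood far above those of other cells, summing to 30856 to 53298 CPM, with Myh6 at 18996 CPM or more in each library. Macrophage markers (6 tested) summed to 10 to 15 CPM in wild type and 18 to 21 CPM in TFEB-/-, endothelial markers (8 tested) to 284 to 378 and 270 to 324 CPM, fibroblast markers (6 tested) to 97 to 119 and 111 to 149 CPM, and smooth muscle and pericyte markers (5 tested) to 212 to 256 and 269 to 364 CPM. Within the last list Acta2 was at 66, 118 and 70 CPM against 161, 233 and 185 CPM (adjusted p = 0.0876), while the list's median log2 fold change was −0.15. The red cell marker Alas2 and the brown fat marker Ucp1 were at 0 in every library, and Adipoq was at 0 in all but TFEB-/- 3, where it was at 1 CPM. Red cell markers (3 tested) summed to 5 to 32 CPM in wild type and 6 to 10 CPM in TFEB-/-. Adipocyte markers (2 tested, neither Ucp1 nor Adipoq) summed to 168 to 196 and 140 to 216 CPM, so other genes of that list were present. Of the markers of other cells, 1 passed the test used below, the fibroblast gene Pdgfra (2 CPM in all wild-type and 3 CPM in all TFEB-/- libraries). That is a difference of 1 rounding step, and 0 of the 6 fibroblast markers passed on either of the other scales described below. Transcripts of the mitochondrial genome took 30.7, 33.9 and 44.6% of the wild-type libraries and 22.2, 30.3 and 25.3% of the TFEB-/- libraries. Every other gene shares what is left of a fixed total, and over all tested genes the log2 fold change (TFEB-/- against wild type) had a median of 0.24. The part of this shift and of the markers of other cells in the results below was not tested, except where a scaling without it is given. In such bulk samples fewer cells of a type and less RNA per cell cannot be told apart.

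Of the 40 tested carriers, 1 rose in TFEB-/-, the calcium-regulated ATP-Mg/phosphate carrier Slc25a23, and 0 fell (limma on log2(CPM + 0.5), Benjamini-Hochberg adjusted p below 0.05 over all tested genes). The same rule called 3.92% of all tested genes higher and 0.523% lower. The log2 fold change was above 0 in 25 carriers, 0 in 5 and below 0 in 10. Its median over the carriers was 0.03, and 12 of 40 lay above the median of all tested genes. An unadjusted p below 0.05 was reached by 6 of 40 carriers and by 2904 of all 12437 tested genes. Those 6 were also the carriers whose values did not overlap between the genotypes. Of the 40, 4 were higher in all TFEB-/- libraries than in any wild-type library, among them Slc25a23, Slc25a37 and Slc25a10, against 21.2% of all tested genes, and 2 were lower in all, Slc25a34 and Slc25a46, against 2.28%.

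Promoter sequences show what lies before the start of the carrier that passed the test and of the most abundant of the 6 carriers with separate groups. The RefSeq table for GRCm38.p6 held 36 of the 47 carriers, 31 of them tested. The 250 bases before the start, printed 5′ to 3′ on the strand of the gene, carried no E-box in Slc25a23 or Slc25a34. Another listed start of Slc25a23 (250 bases at chr17:57059843-57060092, not printed) had no E-box either. Capitals mark TGACCTT in Slc25a34, which is the other strand of AAGGTCA, the half-site of the oestrogen-related receptors.
Slc25a23 (chr17:57059864-57060113, minus strand): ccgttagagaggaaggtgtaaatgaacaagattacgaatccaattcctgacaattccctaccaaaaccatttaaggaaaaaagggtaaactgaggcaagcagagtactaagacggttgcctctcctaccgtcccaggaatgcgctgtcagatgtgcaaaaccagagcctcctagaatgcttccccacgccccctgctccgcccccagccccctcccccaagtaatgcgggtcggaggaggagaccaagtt
Slc25a34 (chr4:141623835-141624084, minus strand): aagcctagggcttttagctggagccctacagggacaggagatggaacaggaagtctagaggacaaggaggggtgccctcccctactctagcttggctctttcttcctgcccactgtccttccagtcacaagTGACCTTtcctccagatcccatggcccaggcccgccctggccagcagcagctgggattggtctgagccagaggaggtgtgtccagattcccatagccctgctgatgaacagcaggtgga
The half-site lay 119 bases before the start of Slc25a34, and this was the 1 match among the 31 tested carriers (3.23%, against 3.83% of 9399 tested genes with a window, counting 250 bases before to 50 after the start on both strands). In the same windows the palindromic E-box CACGTG was present in 7 of 31 carriers (22.6%), against 1111 of 9399 tested genes (11.8%) and 7.15% of all 32851 windows. The 7 were Slc25a1, Slc25a13, Slc25a14, Slc25a15, Slc25a31, Slc25a33 and Slc25a36. The core GCATGCGC of the factor NRF1 occurred in 1 of 31 (3.23%, against 6.04% of tested genes), Slc25a31, where it stood before the E-box. The half-site can end in the first letters of an E-box, but no 2 matches shared letters in a carrier. The surroundings of the E-box, in capitals, are printed for the 6 carriers in which they lie wholly before the start, to show the letters on either side of the core.
Slc25a1 (chr16:17928426-17928469, minus strand): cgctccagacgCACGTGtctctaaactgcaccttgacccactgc
Slc25a13 (chr6:6217266-6217325, minus strand): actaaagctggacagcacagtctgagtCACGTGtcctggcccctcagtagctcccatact
Slc25a14 (chrX:48623367-48623426, plus strand): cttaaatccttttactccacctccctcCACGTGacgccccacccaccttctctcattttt
Slc25a15 (chr8:22398322-22398381, minus strand): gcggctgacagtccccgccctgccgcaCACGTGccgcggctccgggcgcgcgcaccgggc
Slc25a31 (chr3:40708751-40708810, plus strand): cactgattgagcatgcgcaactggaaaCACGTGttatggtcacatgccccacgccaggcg
Slc25a36 (chr9:97111196-97111255, minus strand): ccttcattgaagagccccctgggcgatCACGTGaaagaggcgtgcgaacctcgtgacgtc
The E-box began 239 bases before the start in Slc25a1, 125 in Slc25a13, 93 in Slc25a31 and 187 in Slc25a36. It began 54 and 184 bases before 2 of the listed starts of Slc25a14 and 77 before 1 of those of Slc25a15. Another listed start of Slc25a14, and another of Slc25a15, had no E-box in its window. Of the 7 carriers with an E-box, 0 passed the test in either direction, and their log2 fold changes ran from −0.14 in Slc25a36 to 1.06 in Slc25a31, the latter read at 0 or 1 CPM. Slc25a10, Slc25a23 and Slc25a34 were not among them, and Slc25a37 and Slc25a46 had no window in the table. A match is a description of these letters and says nothing of binding.

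A few carriers held most of the family's messages. Summed over the 47 genes, the carriers took 7688, 8514 and 6603 CPM in the wild-type and 8161, 7091 and 8214 CPM in the TFEB-/- libraries (7602 ± 958 and 7822 ± 634, mean ± SD, n = 3, as for all means here). Slc25a4 alone made up 54.9 ± 1.38% of that sum in wild type and 53.4 ± 1.34% in TFEB-/-, and Slc25a4, Slc25a3, Slc25a11 and Slc25a5 together 83.4 ± 1.26% and 83.8 ± 0.779%. Of the 40 tested carriers, 2 averaged at least 1000 CPM over all libraries, 7 between 100 and 1000, 17 between 10 and 100 and 14 below 10. It is not stated whether the authors divided the counts by transcript length. The same 10 carriers led the order by CPM as deposited and by CPM per kilobase of the longest protein-coding transcript, and 7 of these 10 led with the median transcript length. Per kilobase of the longest transcript the levels were 2172 CPM for Slc25a4, 881.8 for Slc25a3, 341.5 for Slc25a11, 213.4 for Slc25a5, 80.6 for Slc25a20, 73.8 for Slc25a39, 61.1 for Slc25a34, 32.5 for Slc25a13, 29.1 for Slc25a12 and 26.7 for Slc25a42.

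**Figure D1:**
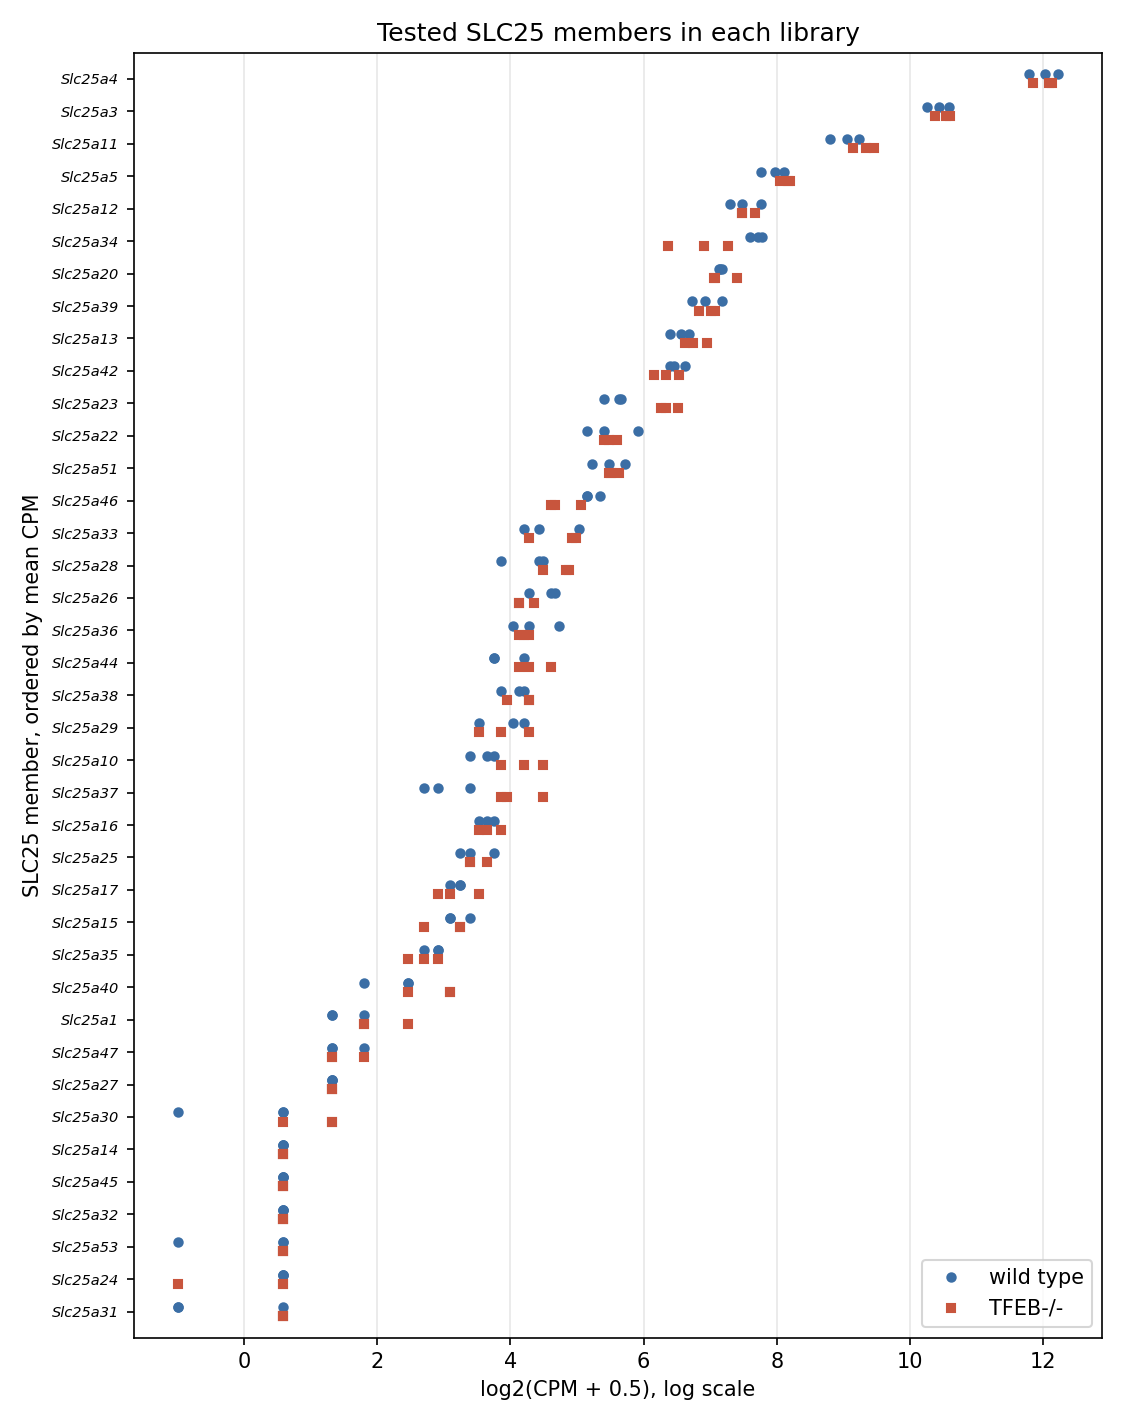
Level of 39 tested SLC25 carriers in each library as log2(CPM + 0.5), a log scale, ordered by mean CPM, with wild type as circles and TFEB-/- as squares, 3 libraries each. Most carriers show intermingled genotypes, while Slc25a34 and Slc25a46 lie to the left and Slc25a23, Slc25a10 and Slc25a37 lie to the right in TFEB-/-.

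The carriers of adenine nucleotides and phosphate (10 listed, 9 tested) held the largest part of the family, and 1 of 9 rose and 0 fell (median log2 fold change 0.01). Slc25a4 (ENSMUSG00000031633, chr8:46206797-46211284), the ADP/ATP carrier of heart and skeletal muscle known as ANT1, was at 4195, 4808 and 3552 CPM in the wild-type and 4352, 3690 and 4494 CPM in the TFEB-/- libraries. The genotypes overlapped throughout, with means of 4185 ± 628 and 4179 ± 429 CPM and a log2 fold change of 0.00 (SE 0.15, 95% interval −0.38 to 0.39, adjusted p = 1). Slc25a3 (ENSMUSG00000061904, chr10:91116574-91124059), the carrier that brings phosphate into the matrix, was at 1392, 1533 and 1228 CPM against 1547, 1332 and 1497 CPM. These values overlapped too (log2 fold change 0.08, SE 0.11, 95% interval −0.21 to 0.37, adjusted p = 0.673). Slc25a5 (chrX:36795651-36798807), the more widely expressed ADP/ATP carrier ANT2, was at 252, 275 and 217 CPM against 288, 292 and 264 CPM. The lowest TFEB-/- library stayed below the highest wild-type one, and the log2 fold change was 0.19 (SE 0.11, adjusted p = 0.329) as deposited and −0.05 with the median-ratio scaling described below. The germ-cell ADP/ATP carrier Slc25a31 was read at 0 or 1 CPM in wild type and at 1 CPM in all TFEB-/- libraries, the edge of what the rounded values can show.

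Slc25a23 (ENSMUSG00000046329, chr17:57043711-57059863, minus strand), also called SCaMC-3, exchanges ATP-Mg for phosphate when calcium rises outside the matrix and so sets the size of the matrix nucleotide pool. It was at 49, 50 and 42 CPM in the wild-type and 91, 80 and 76 CPM in the TFEB-/- libraries. Every TFEB-/- library thus stood well above every wild-type one. The means were 47.0 ± 4.36 and 82.3 ± 7.77 CPM, with a log2 fold change of 0.80 (SE 0.11, 95% interval 0.53 to 1.08 unadjusted, limma adjusted p = 0.0271). Relative to the median of all genes this was 0.57. It kept an adjusted p below 0.05 in 6 of 13 alternatives but not when any one library was left out (adjusted p = 0.0647 to 0.079, log2 fold change 0.72 to 0.86). Its calcium-regulated relatives were much lower: Slc25a25 averaged 10.7 ± 2.08 and 10.7 ± 1.15 CPM, and Slc25a24 was at 1 CPM in all but 1 library, where it was at 0. Slc25a41, the neighbour of Slc25a23 on chromosome 17 with a gap of 2057 bases, was at 0. Slc25a42, which brings coenzyme A into the matrix, averaged 89.7 ± 7.37 and 81.0 ± 10.5 CPM (adjusted p = 0.487), and Slc25a17, a peroxisomal carrier of cofactors, 8.67 ± 0.577 and 8.67 ± 2.08 CPM.

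**Figure D2:**
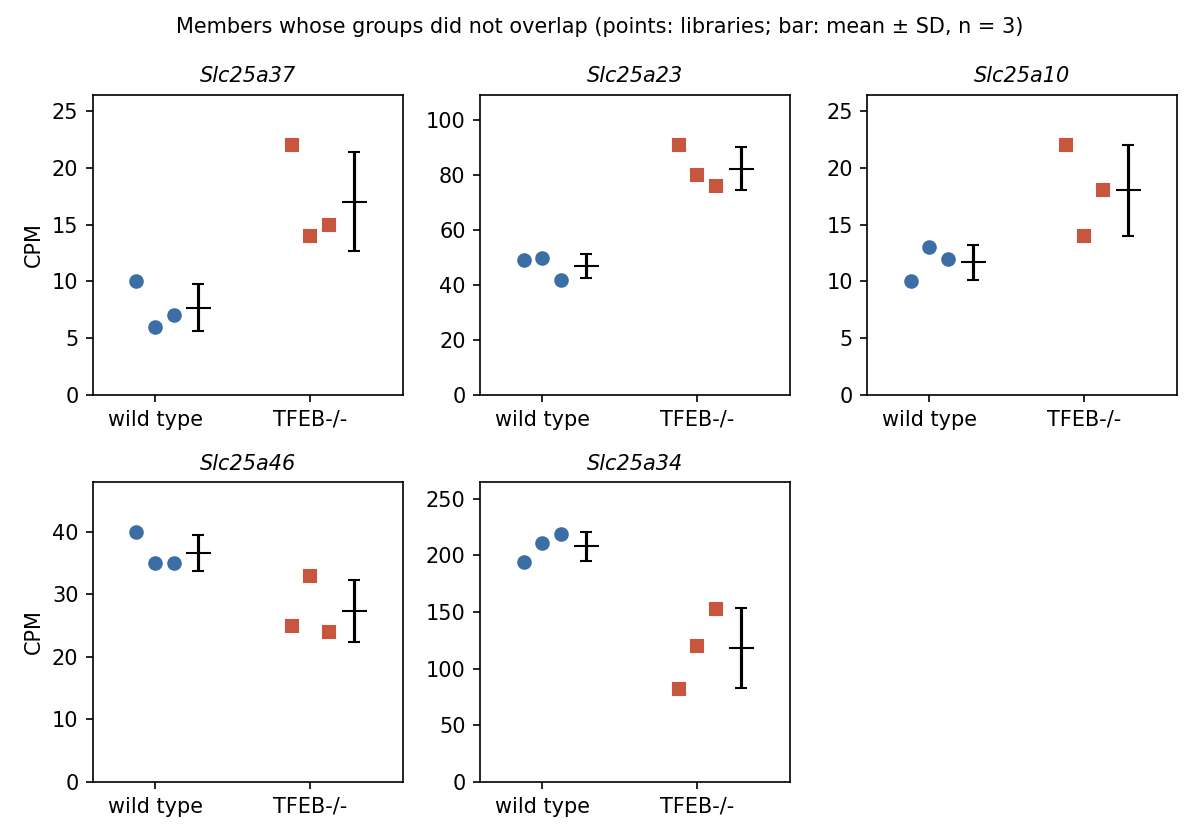
CPM in each library for 5 SLC25 carriers whose genotypes did not overlap, wild type as circles and TFEB-/- as squares, with a bar for the mean ± SD of 3 libraries and axes that start at 0. Slc25a23 runs from 42 to 50 CPM in wild type and 76 to 91 CPM in TFEB-/-, and Slc25a34 from 194 to 219 and 82 to 153 CPM.

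Of the carriers of carboxylates, aspartate and glutamate (8 listed, 6 tested) 0 passed the test in either direction (median log2 fold change 0.25, 1 of 6 with an unadjusted p below 0.05). Slc25a11 (ENSMUSG00000014606, chr11:70644196-70647479), which exchanges oxoglutarate for malate in the malate-aspartate shuttle that carries reducing equivalents into the matrix, was at 534, 605 and 445 CPM in the wild-type and 706, 568 and 648 CPM in the TFEB-/- libraries. The groups overlapped at 1 library on each side (log2 fold change 0.28, SE 0.15, adjusted p = 0.292). Slc25a12 (ENSMUSG00000027010, chr2:71271063-71367749), the aspartate/glutamate carrier of heart and brain and the partner of Slc25a11 in that shuttle, was at 217, 177 and 157 CPM against 204, 177 and 178 CPM. Its log2 fold change was 0.03 (SE 0.14, 95% interval −0.34 to 0.40, adjusted p = 0.941). The liver-type aspartate/glutamate carrier Slc25a13, or citrin, averaged 93.3 ± 9.02 and 109.3 ± 12.7 CPM (adjusted p = 0.298).

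Slc25a10 (ENSMUSG00000025792, chr11:120491840-120499187, plus strand), which exchanges malate and succinate for phosphate, was at 10, 13 and 12 CPM in the wild-type and 22, 14 and 18 CPM in the TFEB-/- libraries. The groups were separate by 1 CPM, the rounding step, and the log2 fold change of 0.59 did not pass the test (SE 0.20, adjusted p = 0.174). With median-ratio scaling and without mitochondrial-genome transcripts the groups of Slc25a10 overlapped. The citrate carrier Slc25a1 was low, at 2.33 ± 0.577 and 3.67 ± 1.15 CPM. The glutamate carrier Slc25a22 averaged 45.7 ± 12.9 and 44.7 ± 3.06 CPM, while its relative Slc25a18 and the oxodicarboxylate carrier Slc25a21 were at 0. Of the enzymes of the malate-aspartate shuttle 0 of 4 tested passed (median log2 fold change 0.00, against 0.24 for all tested genes). The median of 0.25 for the 6 tested carriers of carboxylates, aspartate and glutamate includes carriers outside the shuttle. The most abundant enzymes, Mdh1 and Mdh2, were at 1950.0 ± 296 and 1190.3 ± 182 CPM in wild type and 1919 ± 86.7 and 1448 ± 127 CPM in TFEB-/-.

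The carnitine/acylcarnitine carrier Slc25a20 (ENSMUSG00000032602, chr9:108662088-108684641), through which long-chain fatty acids enter the matrix for oxidation, was at 140, 145 and 142 CPM in the wild-type and 133, 134 and 168 CPM in the TFEB-/- libraries. Its TFEB-/- values lay on both sides of the narrow wild-type range (log2 fold change 0.02, SE 0.11, 95% interval −0.26 to 0.30, adjusted p = 0.967). Of 6 tested genes of the carnitine shuttle, 0 passed. The muscle form of carnitine palmitoyltransferase, Cpt1b, averaged 638.7 ± 50.8 and 627.0 ± 56.5 CPM and carnitine acetyltransferase, Crat, 607.7 ± 77.1 and 607.3 ± 32.7 CPM.

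Both mitoferrins, which import iron for haem and iron-sulphur clusters, were tested, and 0 of 2 passed. Slc25a37 (ENSMUSG00000034248, chr14:69241848-69285112, minus strand), mitoferrin-1, the form of developing red cells, was at 10, 6 and 7 CPM in the wild-type and 22, 14 and 15 CPM in the TFEB-/- libraries. The groups were separate, with means of 7.67 ± 2.08 and 17.0 ± 4.36 CPM and a log2 fold change of 1.10, but the adjusted p was 0.0933 (SE 0.26). With median-ratio scaling, which divides each library by its median ratio to the geometric mean of all genes, Slc25a37 rose (log2 fold change 0.87, limma adjusted p = 0.0421). Part of its sequence is shared: 352 of the 4144 stretches of 31 bases in its longest transcript (8.49%) also occur in Gm16867, a coding gene that was read at 1, 10 and 2 CPM in the wild-type and 16, 1 and 5 CPM in the TFEB-/- libraries. Reads of that shared sequence cannot be told apart. Summed over both genes the values were 11, 16 and 9 CPM against 38, 15 and 20 CPM, so the groups overlapped, and the log2 fold change was 0.92 (SE 0.41, adjusted p = 0.254). Of the red cell markers, Alas2 was at 0, and Hba-a1 was read at 17, 1 and 4 CPM in the wild-type and 2, 4 and 3 CPM in the TFEB-/- libraries. Slc25a28, mitoferrin-2, the form of most tissues, averaged 19.0 ± 4.36 and 26.3 ± 3.79 CPM (log2 fold change 0.48, adjusted p = 0.254).

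Among carriers of cofactors, nucleotides and glutathione 0 of 9 tested passed in either direction (median log2 fold change 0.03). Slc25a39 (ENSMUSG00000018677, chr11:102402985-102407946), the more abundant of the pair of glutathione carriers, was at 121, 144 and 105 CPM against 134, 114 and 128 CPM. Its groups overlapped (log2 fold change 0.03, SE 0.14, adjusted p = 0.933), and its relative Slc25a40 averaged 4.33 ± 1.15 and 7 ± 1.73 CPM (adjusted p = 0.25). The NAD carrier Slc25a51 averaged 44.3 ± 7.51 and 46.0 ± 2.65 CPM, and the pyrimidine nucleotide carriers Slc25a33 and Slc25a36 averaged 23.7 ± 7.37 and 20.3 ± 5.13 CPM in wild type and 26.7 ± 6.66 and 18 ± 1 CPM in TFEB-/-. Slc25a16 averaged 12 ± 1 and 12.3 ± 1.53 CPM, and Slc25a32, a carrier of folate and FAD, was at 1 CPM in every library. Slc25a26, which brings the methyl donor S-adenosylmethionine into the matrix, averaged 22.7 ± 3.21 and 18 ± 1.73 CPM (log2 fold change −0.32, adjusted p = 0.24), and shares 144 exonic bases on the opposite strand with Lrig1, which was at 24 to 46 CPM. Of 9 tested genes that use coenzymes, iron or haem precursors supplied by carriers, 0 passed, and the most abundant were Alas1 (196.7 ± 41.1 and 155.3 ± 19.9 CPM) and Fech (90.7 ± 10.4 and 111.7 ± 10.1 CPM), the first and last enzymes of haem synthesis. Alas1 fell on the other scales described below (log2 fold change −0.56 with median-ratio scaling, adjusted p = 0.028, and −0.55 without mitochondrial-genome transcripts, adjusted p = 0.0335).

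Of the carriers of other amino acids (5 listed, 4 tested) 0 passed (median log2 fold change 0.04). Slc25a44, which carries branched-chain amino acids, averaged 14.7 ± 2.89 and 20.0 ± 3.61 CPM (adjusted p = 0.254 for a log2 fold change of 0.44). The glycine carrier Slc25a38 averaged 16.3 ± 2.08 and 17.7 ± 2.31 CPM, the carrier of basic amino acids Slc25a29 15.0 ± 3.61 and 14.7 ± 4.04 CPM, and the ornithine carrier Slc25a15 8.67 ± 1.15 and 8 ± 1.73 CPM, and the other ornithine carrier, Slc25a2, was at 0.

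The uncoupling-like and orphan members (12 listed, 9 tested) held both carriers that were lower in all TFEB-/- libraries, and 0 passed the test (median log2 fold change 0.00). Slc25a34 (ENSMUSG00000040740, chr4:141618824-141623821, minus strand), an orphan whose substrate is not settled, was at 194, 211 and 219 CPM in the wild-type and 82, 120 and 153 CPM in the TFEB-/- libraries. It was the most abundant orphan, the groups were separate, and the TFEB-/- libraries spread more widely than the wild-type ones (208.0 ± 12.8 and 118.3 ± 35.5 CPM). The log2 fold change of −0.85 (SE 0.24, 95% interval −1.49 to −0.22 unadjusted) had an adjusted p of 0.131. With a filter of at least 5 CPM in 3 libraries, which left 30 carriers, Slc25a34 fell (limma adjusted p = 0.0419) and Slc25a37 rose (adjusted p = 0.0208). Under that filter 571 of all genes were higher and 59 lower. Slc25a34 had an adjusted p below 0.05 in 2 of 13 alternatives, and Slc25a37 in 4 of 13. For Slc25a34 the limma adjusted p was 0.0623 with median-ratio scaling and 0.0592 without mitochondrial-genome transcripts. With any one library left out it was 0.128 to 0.3. Slc25a46 (ENSMUSG00000024259, chr18:31556111-31609911, minus strand), a member of the outer membrane that takes part in mitochondrial fusion and fission, was at 40, 35 and 35 CPM against 25, 33 and 24 CPM. TFEB-/- 2 came close to the lower wild-type libraries (log2 fold change −0.43, SE 0.15, adjusted p = 0.178). Slc25a35, a relative of Slc25a34, averaged 6.67 ± 0.577 and 6 ± 1 CPM, and shares 1151 exonic bases with Rangrf on the opposite strand, which was at 38 to 50 CPM. Whether the counting used strand is not given in the sources used here. The uncoupling-like Slc25a14, Slc25a27 and Slc25a30 and the orphans Slc25a45, Slc25a47 and Slc25a53 were at 0 to 3 CPM. The carriers Slc25a14, Slc25a27, Slc25a32 and Slc25a45 had 1 value in all 6 libraries, so their fold change of 0 reflects rounding.

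**Figure D3:**
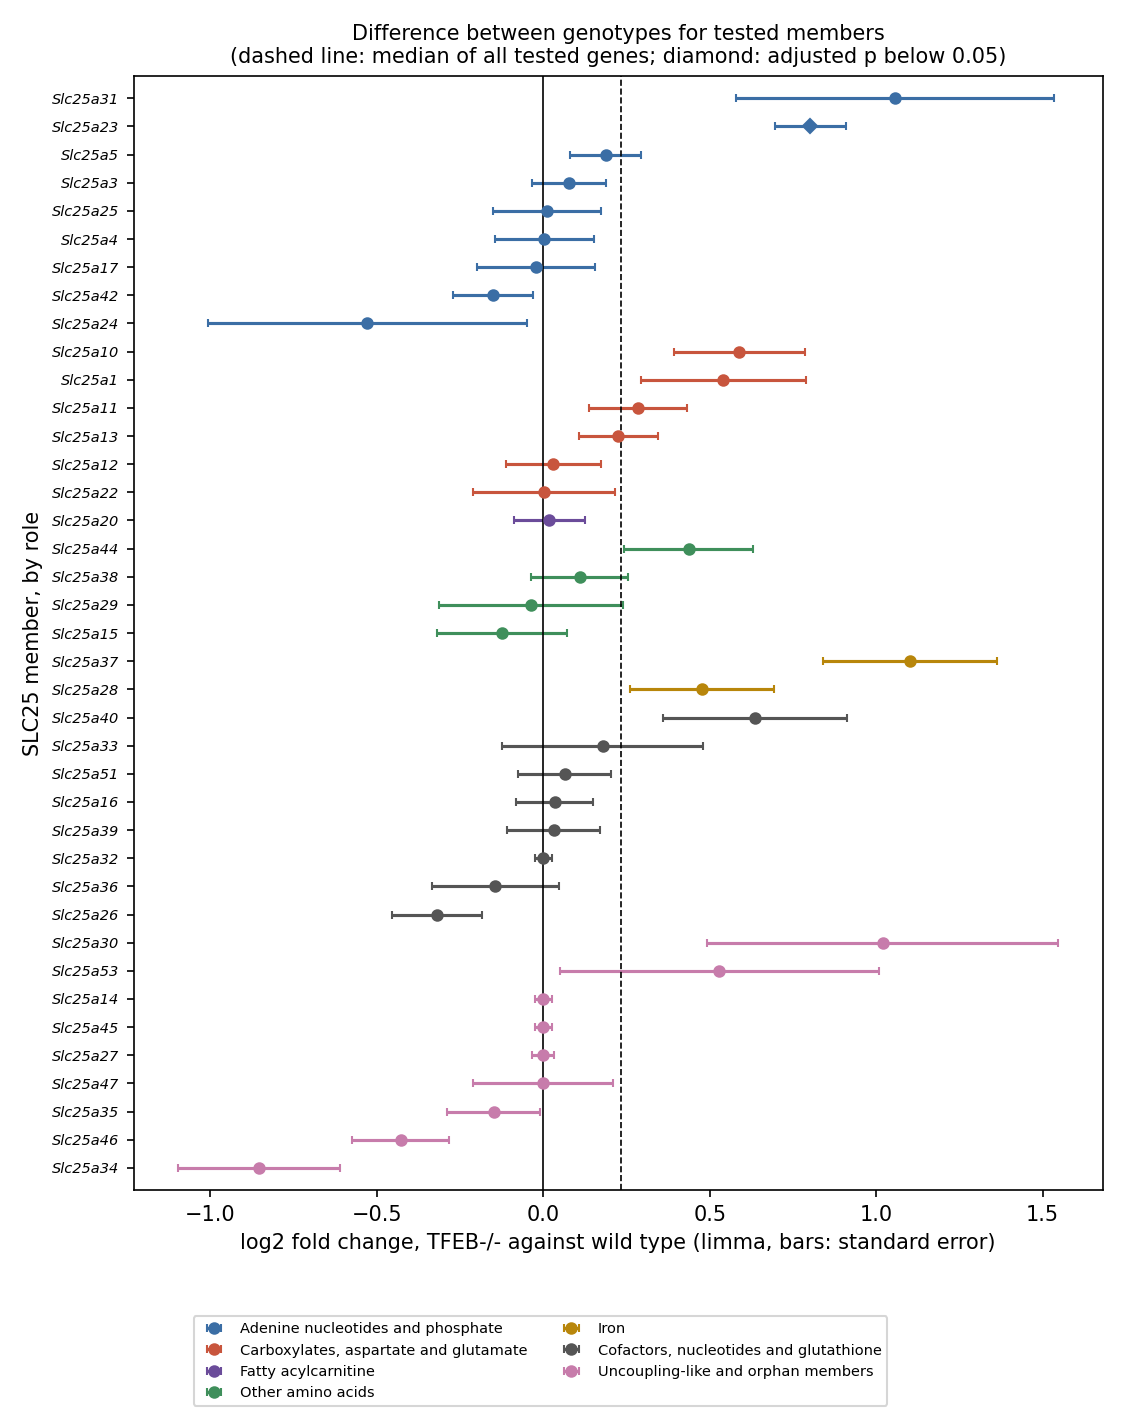
The log2 fold change of 39 tested carriers (TFEB-/- against wild type, limma, bars for the standard error), coloured and grouped by role, with a dashed line at the median of all tested genes (0.24). The diamond is Slc25a23, the 1 carrier with an adjusted p below 0.05, and 28 of the 39 carriers lie to the left of the dashed line.

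Because the groups differed in the share of mitochondrial-genome transcripts, the carriers were also compared on scales that remove it. With median-ratio scaling the median over all genes was 0.01 and that of the carriers −0.17, and 28 of 40 carriers were below 0. On that scale 2 carriers rose, Slc25a23 (adjusted p = 0.0147) and Slc25a37, and 0 fell, against 3.87% of all tested genes higher and 1.61% lower. With CPM recomputed without mitochondrial-genome transcripts, 1 carrier rose, Slc25a23 (log2 fold change 0.58, adjusted p = 0.0164), and 1 fell, Slc25a26 (log2 fold change −0.54, adjusted p = 0.0398, and 0.0534 with median-ratio scaling), against 3.7% of tested genes higher and 1.51% lower. The log2 fold change of Slc25a4 was then −0.22 (adjusted p = 0.322). On this scale Slc25a4 was at 6059, 7278 and 6419 CPM in the wild-type and 5598, 5295 and 6018 CPM in the TFEB-/- libraries, so its groups no longer overlapped, while with median-ratio scaling they did. Slc25a14, at 1 CPM in every library as deposited, also had separate groups without mitochondrial-genome transcripts, so the rescaling alone can separate groups. Slc25a3, Slc25a12, Slc25a39, Slc25a42 and Slc25a51, among others, were separate and lower here too, and Slc25a23 and Slc25a37 were separate and higher. How many of all tested genes had separate groups on this scale was not counted, so neither these carriers nor the family sum has a baseline. The sum of all carriers was 11105, 12888 and 11933 CPM against 10498, 10175 and 10999 CPM (11975 ± 892 and 10557 ± 415), and here too each TFEB-/- library lay below each wild-type one. Of the 8 most abundant carriers, 6 went from above 0 on the deposited scale to below 0 on both others (Slc25a4, Slc25a3, Slc25a5, Slc25a12, Slc25a20 and Slc25a39), Slc25a11 stayed above 0 (0.28, 0.05 and 0.06) and Slc25a34 below. The summed family thus overlapped between the genotypes as a share of all messages, and was lower in each TFEB-/- library as a share of nuclear messages. Slc25a4 was the largest part of this sum. The sum was not formed with median-ratio scaling, under which Slc25a4 itself overlapped.

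**Figure D4:**
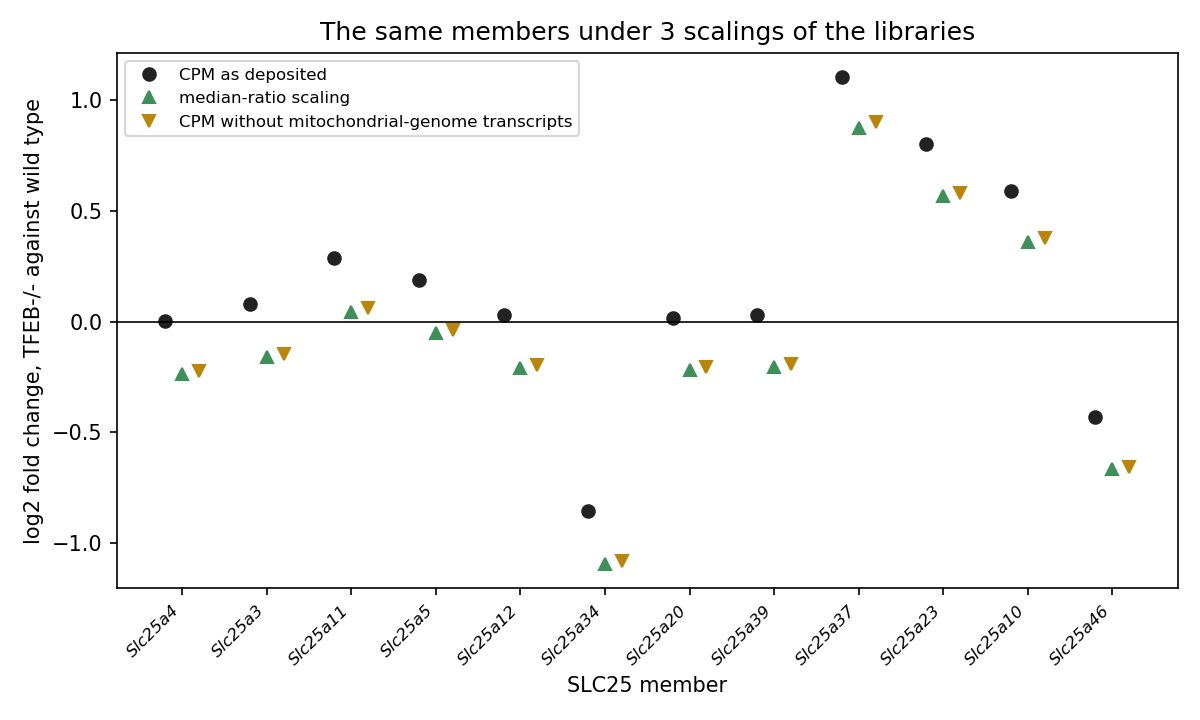
The log2 fold change of 12 carriers, the 8 most abundant and 5 with separate groups as deposited (Slc25a34 is in both), under CPM as deposited (circles), median-ratio scaling (upward triangles) and CPM without mitochondrial-genome transcripts (downward triangles). Both other scalings shift every carrier down, so that Slc25a4 moves from 0.00 to −0.24 and −0.22, while Slc25a23 stays above 0.

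Related carriers were also compared within each library. For 6 pairs of paralogues with both members tested, the log2 ratio of (CPM + 0.5) was compared by an exact two-sided permutation test, whose smallest possible p is 0.1 with 3 against 3, so none of the 6 could reach 0.05. Slc25a4 exceeded Slc25a5 by 4.05, 4.13 and 4.03 on the log2 scale in wild type and by 3.92, 3.66 and 4.09 in TFEB-/-, which overlapped (difference −0.18, exact p = 0.3, adjusted over the pairs 0.45). Of the Slc25a5 sequence, 67.1% of the stretches of 31 bases also occur in other genes, against 0% for Slc25a4. The 8 genes that share most with Slc25a5, 7 of them processed pseudogenes, were at 0 in every library. Slc25a28 exceeded Slc25a37 by 1.03, 1.79 and 0.95 in wild type and by 0.34, 0.63 and 0.93 in TFEB-/-. This was the 1 pair whose groups did not overlap, though by little, and it reached the smallest possible p (difference −0.62, exact p = 0.1, adjusted 0.4). The ratio used Slc25a37 without Gm16867, which shares sequence with it, and was not formed with their sum. The ratio of Slc25a39 to Slc25a40 differed by −0.60 (exact p = 0.2) and that of Slc25a12 to Slc25a13 by −0.19 (exact p = 0.2). The ratios of Slc25a24 to Slc25a25 (−0.54, exact p = 0.7) and of Slc25a33 to Slc25a36 (0.32, exact p = 0.6) differed by less than the SD of their TFEB-/- libraries. Slc25a24 was at 0 CPM in TFEB-/- 1 and at 1 CPM in the other libraries, so the difference in its ratio rests on 1 rounding step.

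**Figure D5:**
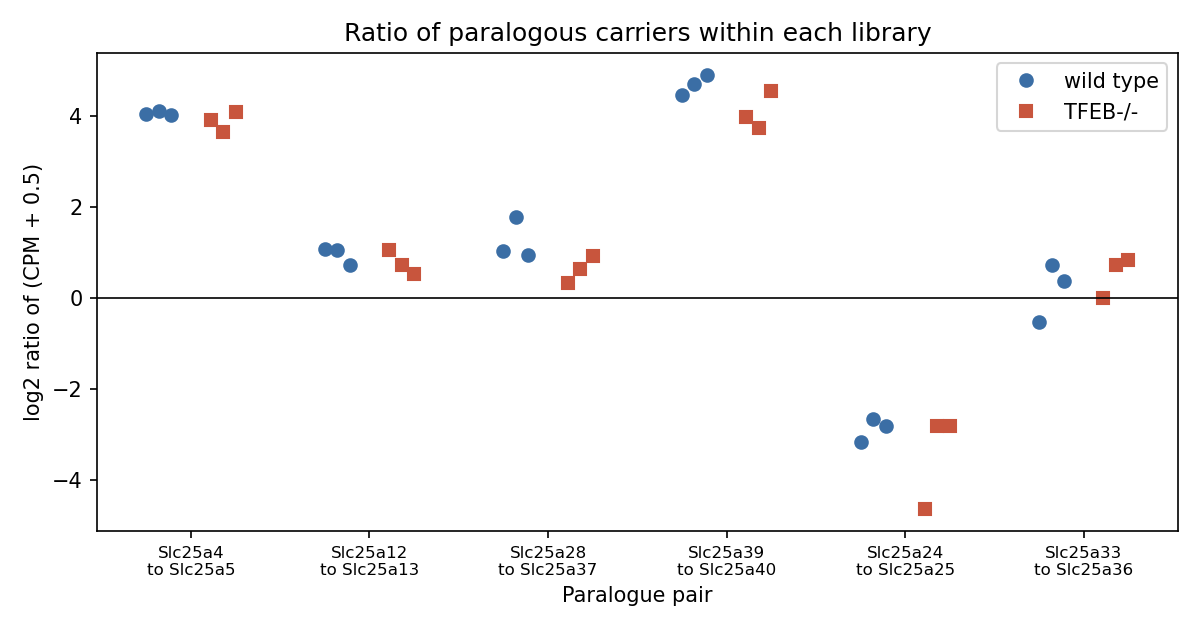
The log2 ratio of (CPM + 0.5) of 6 pairs of related carriers in each library, wild type as circles and TFEB-/- as squares. In 5 pairs the genotypes overlap, and in the pair of Slc25a28 and Slc25a37 the wild-type libraries run from 0.95 to 1.79 and the TFEB-/- libraries from 0.34 to 0.93.

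Genes that work beside the carriers were tested in the same fit, which called 3.92% of all tested genes higher and 0.523% lower. Of 4 tested relatives of the carrier fold outside the naming rule, 1 rose and 0 fell: the uncoupling protein Ucp2 was at 24, 49 and 21 CPM in the wild-type and 395, 358 and 275 CPM in the TFEB-/- libraries (adjusted p = 0.0136 for a log2 fold change of 3.52), larger than the difference of any SLC25 carrier. Leaving out wild type 1 or 3, or TFEB-/- 1 or 3, took its adjusted p above 0.05, as did the replicate block. Of 16 genes that import carriers from the cytosol into the inner membrane 0 passed (median log2 fold change 0.25, against 0.24 for all genes). The most abundant were the outer membrane translocase subunit Tomm5 (81.3 ± 10.1 and 86.0 ± 1.73 CPM) and the small chaperone Timm8b (62.7 ± 10.1 and 79.3 ± 3.21 CPM). Timm10, which keeps carriers soluble on their way between the membranes, was at 38, 41 and 33 CPM against 78, 57 and 65 CPM. It missed the threshold on the deposited scale (log2 fold change 0.82, adjusted p = 0.057) and rose with median-ratio scaling (0.58, adjusted p = 0.0232) and without mitochondrial-genome transcripts (0.60, adjusted p = 0.0254). Of 20 other channels and transporters of mitochondria 1 rose and 0 fell: Sfxn1, a serine transporter, read 2 CPM throughout wild type and 3 CPM throughout TFEB-/- (adjusted p = 0.00336), a difference of 1 rounding step. On both other scales Sfxn1 was not called and the outer membrane protein Tspo rose instead, from 12, 15 and 10 CPM to 38, 23 and 35 CPM as deposited (adjusted p = 0.061 as deposited, 0.0185 with median-ratio scaling). Timm10 and Tspo were chosen after their values were seen.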

How the data were processed

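The values are a whole-number score taken from the name of the deposited table to be CPM made with kallisto. They were rounded by the authors, and each library summed to 999505 to 999655. The submitters' processing notes name the build GRCm38 and several aligners and counters with no version, among them kallisto, DESeq2 and edgeR, and whether length entered the values is not given in the sources used here. Libraries were grouped by their titles. Read depth per library is unknown, so no counting interval is given.

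Entries sharing a symbol were summed, and positions and transcripts were taken from GENCODE M21 (46005 of 46517 entries matched by ID). Genotypes were compared with limma 3.58.1 (R 4.3.3) on log2(CPM + 0.5), with a mean-variance trend, two-sided, Benjamini-Hochberg adjusted over 12437 genes, threshold 0.05, residual degrees of freedom 4 (4.88 with the trend's). The added 0.5 understates fold changes of low genes. Simulated data with known changes were used to check the fit. Intervals are 95% and unadjusted. Shared stretches were exact matches of 31 bases. Alternatives were a pseudocount of 1 CPM, no filter, a filter of 5 CPM, median-ratio scaling, CPM without mitochondrial-genome transcripts, robust hyperparameters, the replicate number as a block and each library left out. The orders without length and the sum of Slc25a37 with Gm16867 were added after seeing the data.

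The members, their roles, the related gene lists and the marker lists were chosen with earlier results of these data known. Members are named with every library's value where they passed the threshold, had separate groups or were among the 8 with the highest mean CPM. From a related list, genes with an adjusted p below the threshold are named, or else its 2 most abundant. The values of 1 carrier and 1 marker gene are not reported here, though both remain in the counts and sums.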

Additional observations from a re-analysis of the deposited data

How the results depend on the processing

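As analysed in the report, 1 carrier was higher and 0 were lower, beside 487 and 65 of all tested genes. A pseudocount of 1 CPM and no filter on low values left both carrier counts as they were. The filter of 5 CPM gave 3 higher and 1 lower, robust hyperparameters 3 and 1, median-ratio scaling 2 higher, and CPM without mitochondrial-genome transcripts 1 lower. The counts over all genes became 780 higher and 79 lower of 12437 with robust hyperparameters. With median-ratio scaling they were 481 higher and 200 lower (3.87% and 1.61%). Without mitochondrial-genome transcripts they were 460 and 188 of 12424 (3.7% and 1.51%). The filter of 5 CPM gave 571 higher and 59 lower. That filter left 30 carriers and fewer genes in all, a number not given here, so its counts have another base. Leaving out one library at a time gave 0 to 1 carriers higher, 0 lower, and 248 to 516 of all genes higher and 52 to 91 lower. The 1 carrier called then, without wild type 2, was Slc25a31, whose remaining values were 0 and 1 CPM with no spread within groups, and not Slc25a23. With the replicate block 1 carrier was higher, Slc25a37 (adjusted p = 0.0264) in place of Slc25a23 (adjusted p = 0.0762), and all genes gave 159 higher and 26 lower. Same-numbered libraries correlated at 0.144, −0.0492 and 0.0883 in their deviations from the group means across genes, so the numbers were not taken to pair the libraries. The log2 fold change changed sign in 13 carriers with median-ratio scaling and in 12 without mitochondrial-genome transcripts. Among those that exceeded their SE as deposited, it did so for Slc25a5 (−0.0521 with median-ratio scaling, −0.0383 without mitochondrial-genome transcripts) and Slc25a13 (−0.013 with median-ratio scaling). These scalings bring the median of all genes to 0.01 and 0.02. Timm10 and Tspo were also called with the filter of 5 CPM and with robust hyperparameters. Rounding to 1 CPM limits the 14 tested carriers below 10 CPM.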
